A study of Homo sapiens with 24 samples.

Results

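Interferon-response genes are genes whose transcription rises when a cell perceives an interferon or viral nucleic acid. The set described here held 58 of the 29794 genes in the count tables: 10 for sensing of nucleic acids, 10 for signalling, 5 of the ISG15 system, 5 of the PARP group, 21 effectors and 7 for antigen presentation. OAS3 and SAMD9, whose results had been seen when the list was written, and the rest of the OAS and SAMD9 genes were left out of it. Every symbol was paired with 1 gene identifier. Members were then chosen by measured values, since a gene entered a test only where its counts passed a filter on low values in that batch.

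RNA-seq was performed on 24 libraries of the human line Flp-In T-REx 293, HEK293-derived kidney cells built to carry inducible transgenes. Cells were transduced with a lentivirus that carries a miRNA hairpin in the intron of a doxycycline-inducible GFP gene under a CMV promoter, and control cells carried the empty vector, which is the GFP construct without a hairpin. Batch 1 held empty vector cells and cells expressing miR-1 or miR-122 (n = 2 each). Batch 2 held empty vector cells and cells expressing miR-133a or miR-155 or the related miR-302a, miR-372 or miR-373 (n = 3 each). All groups, controls included, received 1 µg/mL doxycycline for 7 days and 1 mg/mL Geneticin for 6 days, and each replicate came from its own transduction. The model is thus 1 cell line with GFP in every group and a miRNA that these cells make from a transgene.

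In the textbook pathway, RNA sensors such as the RIG-I-like helicases signal through the adaptor MAVS, and DNA sensors through STING1, to the factors IRF3 and IRF7, which switch on interferon genes. Secreted interferon binds its receptors, the kinases JAK1 and TYK2 activate STAT2, which acts with IRF9 at the interferon-stimulated response element in promoters. The products sense, tag, restrict or degrade viral components, or raise the display of peptides on class I molecules.

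A miRNA recognises mRNAs mainly by its seed, bases 2 to 8, which pairs with the 3′UTR. The mature sequences of the induced miRNAs, from RefSeq, are shown because their seeds define the comparison: miR-302a, miR-372 and miR-373 share the seed AAGUGCU and are called the same-seed miRNAs below, whereas the other 4 each have a seed of their own. Capitals mark the seed.
miR-1: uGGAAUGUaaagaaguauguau
miR-122: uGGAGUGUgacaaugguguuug
miR-133a: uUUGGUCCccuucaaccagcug
miR-155: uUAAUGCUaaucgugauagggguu
miR-302a: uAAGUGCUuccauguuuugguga
miR-372: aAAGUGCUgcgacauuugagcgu
miR-373: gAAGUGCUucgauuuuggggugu

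Libraries held 20153452 to 21595191 counted reads in batch 1 and 13047400 to 35040778 in batch 2. All 7 markers of HEK293 cells matched in the files had reads in every library. With the pooled same-seed miRNAs 4 of the 7 were higher (PAX2, KRT8, KRT18 and LIN28B, 0.32 to 0.47 on the log2 scale) and 1 lower (CDH2, -0.20), and with miR-1 3 were higher and 1 lower, and their part in the results was not tested. The 8 leukocyte markers summed to 0.69 to 1.82 CPM (reads relative to library size, scaled by TMM), and only 2 of them had reads in every library. The leukocyte sum ranged from 0.857 to 1.13 CPM in the batch 2 control cells, up to 1.82 with miR-302a, up to 1.77 with miR-372 and up to 1.58 with miR-373, and its part in the results was not tested. In batch 2, 2 libraries, miR-155 replicate 2 and miR-372 replicate 2, stood apart on the second principal component (17.8% of the variance), and main counts are also given without them. In bulk RNA, fewer cells that express a gene and less mRNA per cell cannot be told apart.

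Most members were expressed at a level that could be tested. In each batch 50 of the 58 members passed the filter and 8 did not, where 14348 (batch 1) and 14054 (batch 2) of the 29794 genes passed. The 8 members that failed had at most 45 reads over the 6 libraries of batch 1 and at most 111 over the 18 libraries of batch 2. CGAS (the cytosolic DNA sensor), IFI16 (a DNA-binding PYHIN protein), IRF7 (the factor that drives interferon-α genes), IFI44, IFI44L, XAF1 and PSMB8 (an immunoproteasome subunit) failed in both batches, with UBA7 (the E1 enzyme for ISG15) in batch 1 and IFIT2 (a tetratricopeptide RNA-binding protein) in batch 2. At the edge of the filter in batch 2, UBA7 was inside with 110 reads in total and IFIT2 outside with 111, since the filter asks for at least 3 libraries above 0.706 CPM, which UBA7 reached in 3 and IFIT2 in 2. At the edge in batch 1, UBA7 was outside with 45 reads and IFIT2 inside with 67. None of the 7 interferon ligand genes looked up passed in either batch.

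Compared per length in the control cells of batch 2 (RPKM, reads scaled to gene length and to depth), the most abundant members were HLA-C at 201.3, the secreted glycoprotein LGALS3BP at 119, B2M at 84.2, HLA-B at 55.8 and the RNA-editing enzyme ADAR at 52.2. The 10 sensing members were spread widely, from 0.0434 for IFI16 and 0.139 for DHX58, a RIG-I-like helicase with no signalling domain, through 2.39 for IFIH1 and 15.9 for MAVS to ADAR. The effectors were spread as well, with IFI6 at 13.8, IFITM1 at 7.23, IFIT1 at 2.47, MX1 at 0.526, IFIT3 at 0.416, CMPK2 at 0.228 and XAF1 at 0.

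**Figure D1:**
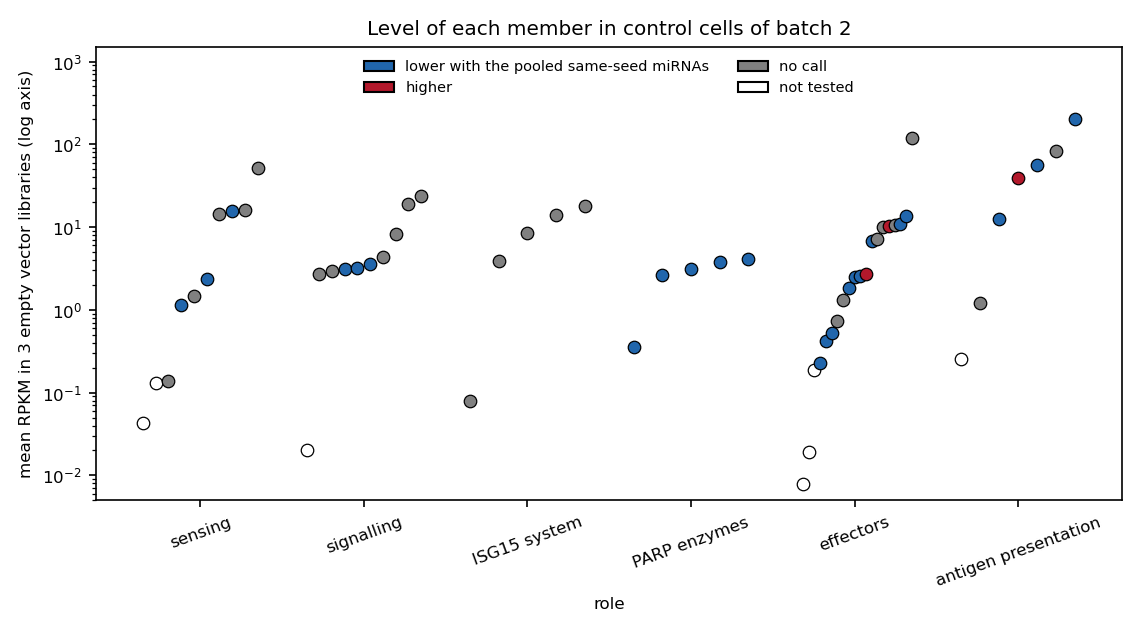
Mean level of each member in the 3 empty vector libraries of batch 2, in RPKM on a log axis, arranged by role and coloured by its call with the pooled same-seed miRNAs. Members called lower lie between 0.228 (CMPK2) and 201.3 (HLA-C); XAF1, with no reads in these libraries, is not drawn.

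With the same-seed miRNAs, members of the set were mainly lower, and by different amounts in different roles. In the contrast of the 9 pooled libraries of these miRNAs with the 3 empty vector libraries, 26 of 50 members were called at an adjusted p below 0.05 by edgeR's quasi-likelihood test, of all genes 15.4%. Of these, 23 were lower and 3 higher, beside 9.11% and 6.28% of all genes tested. CMPK2 and IFIT3, among the 23, passed the filter through groups in which they were high. The median log2 fold-change was -0.25 over the 50 members and 0.00 over all genes to within 0.01. Taken singly, miR-302a had 18 members lower and 2 higher (all genes 7.88% called, 4.85% lower and 3.02% higher), miR-372 had 19 and 3 (11.4%, 6.56% and 4.82%), and miR-373 had 15 and 2 (5.13%, 3.3% and 1.83%). These comparisons share the 3 control libraries. Without miR-155 replicate 2 and miR-372 replicate 2 the pooled contrast called 30 members, 26 lower and 4 higher, and each of the same-seed miRNAs 22. Without empty vector replicate 2, 13 members were called with miR-302a. With each of the 3 miRNAs, 15 members were lower, and IFITM2 and IFI30 were higher. All 6 fits that left out 1 library lost the call of HLA-C with miR-302a and of MX1 with miR-373. MX1 with miR-302a and IFI30 with each of the 3 lost it in 5 of 6. EIF2AK2 and IFITM2 with miR-373, and IFI6 and CMPK2 with miR-302a, lost it in 4 of 6. IFIH1, IRF2, NMI, PARP9, DTX3L, PARP12, PARP14 and SP110 kept theirs in every such fit. The share of all genes called with each of the 3 was not computed.

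**Figure D2:**
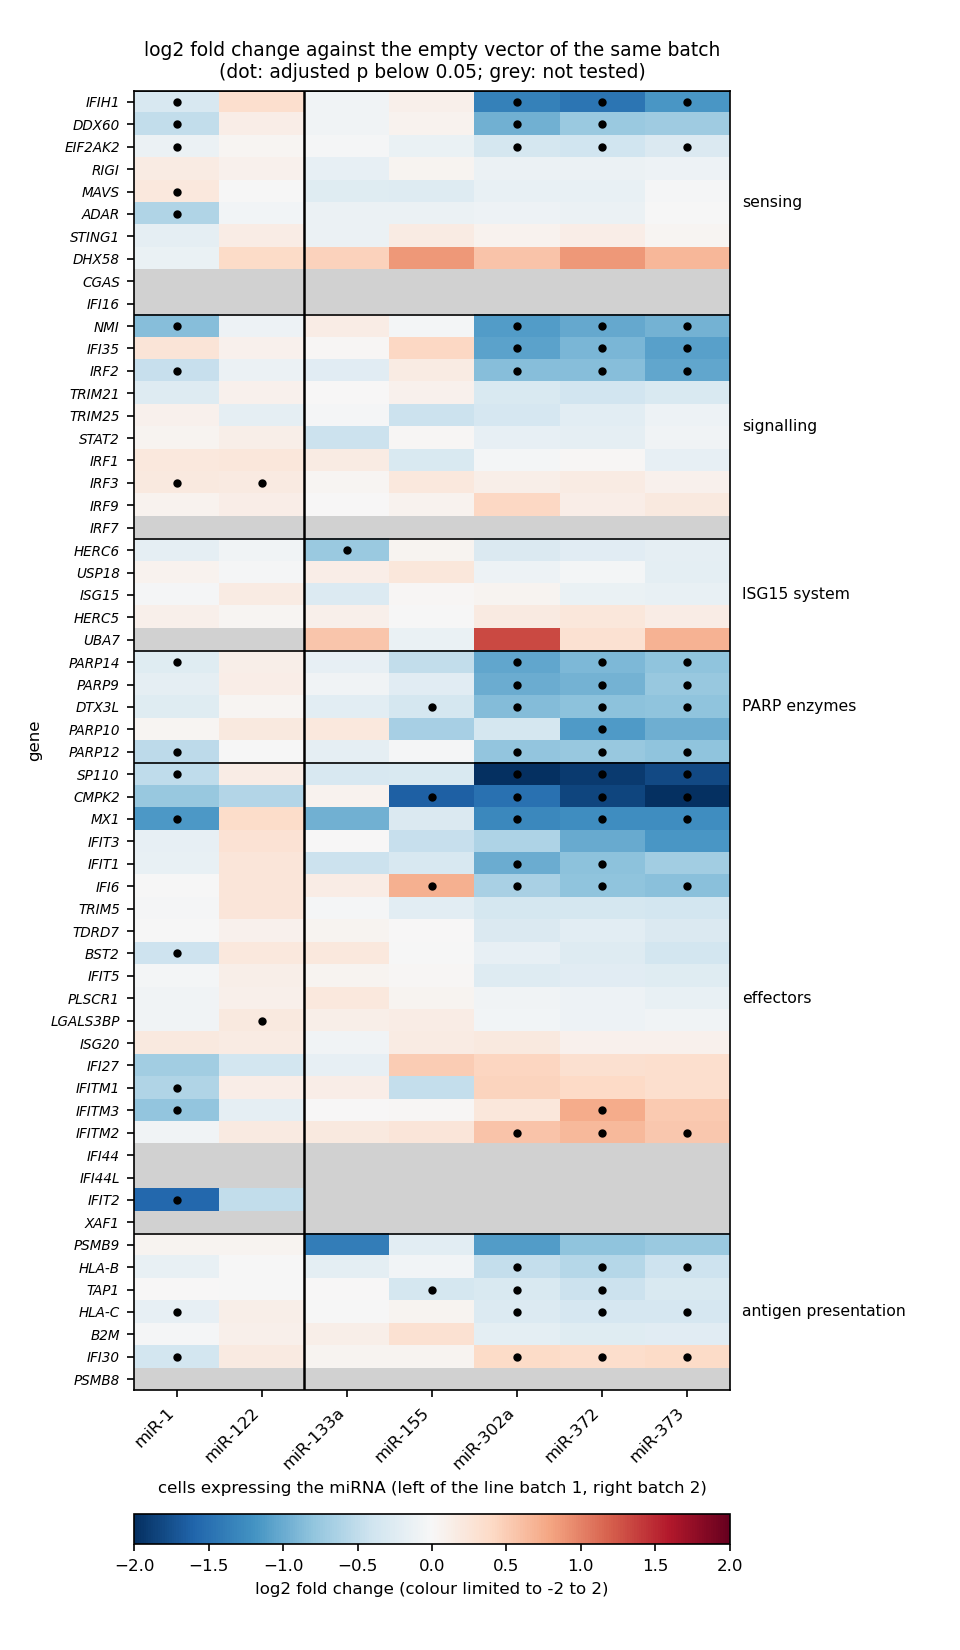
Log2 fold-change of every member (rows, by role) in cells expressing each miRNA (columns) against the empty vector of its batch, with dots for adjusted p below 0.05 and grey for members not tested. The 3 right-hand columns share the 15 members lower with each same-seed miRNA, and the columns of miR-122 and miR-133a hold 2 and 1.

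**Figure D3:**
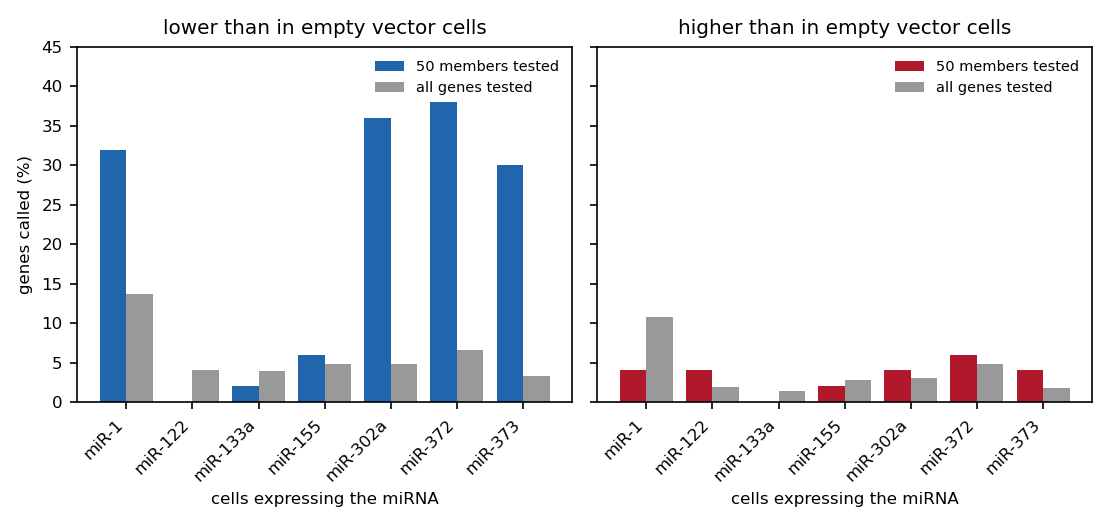
Share of the 50 tested members and of all tested genes called lower (left) or higher (right) than in empty vector cells, in percent, for each miRNA. The largest share of members is the 19 called lower with miR-372, where 6.56% of all genes were lower.

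Among the sensors, 3 of 8 tested members were lower. IFIH1 (MDA5), the helicase that recognises long double-stranded RNA, had 11.1, 10.54 and 8.53 CPM in the control libraries. It had 4.21, 2.63 and 5.11 CPM with miR-302a, 4.15, 2.82 and 3.85 with miR-372, and 5.40, 3.55 and 4.58 with miR-373. Every same-seed library thus lay below every control library, with a log2 fold-change of -1.33 (SE 0.154; adjusted p = 9.9e-06 by edgeR). EIF2AK2, the double-stranded RNA-dependent kinase PKR, went from 149 to 166 CPM in control cells to 113 to 137 CPM in the same-seed libraries, a log2 fold-change of -0.35 (SE 0.0583; adjusted p = 0.00047, edgeR). DDX60, an interferon-induced helicase, was lower by 0.81 on the log2 scale. The related helicase RIGI (-0.11, adjusted p = 0.62), MAVS (-0.11, adjusted p = 0.65), STING1 (0.08, adjusted p = 0.59) and ADAR (-0.08, adjusted p = 0.54) did not pass the test with edgeR.

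Of the signalling members, IRF2, NMI and IFI35 were lower, 3 of 9 tested. IRF2 is an interferon regulatory factor that competes with IRF1 for promoter sites. It had 9.83, 8.37 and 9.30 CPM in the control libraries, 5.40, 4.09 and 5.80 with miR-302a, 5.18, 5.56 and 4.67 with miR-372, and 3.40, 5.24 and 4.61 with miR-373, with a log2 fold-change of -0.91 (SE 0.124; adjusted p = 5.2e-05, edgeR). The groups did not overlap.
NMI binds STAT proteins and forms a complex with IFI35. NMI had 6.68, 5.73 and 4.62 CPM in control cells and 2.06 to 3.47 CPM in the same-seed libraries (log2 fold-change -1.03, SE 0.154, adjusted p = 0.00014 by edgeR), and its partner IFI35 changed by -1.02 (SE 0.173, adjusted p = 0.00048). Again no same-seed library reached a control library. The subunits of the response factor itself did not pass: STAT2 was at -0.14 (adjusted p = 0.47, edgeR) and IRF9 at 0.24 (adjusted p = 0.33). IRF1 (-0.06) and IRF3 (0.12) did not pass either.

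All 5 members of the PARP group were lower, with log2 fold-changes between -0.91 and -0.78. PARP9, a macrodomain protein, and DTX3L, the ubiquitin ligase that works with it, lie head to head on chromosome 3 (PARP9 at chr3:122246771-122283424 on the minus strand, DTX3L at chr3:122283185-122294050 on the plus strand, GRCh37), so their starts overlap and only stranded counting separates them. PARP9 had 19.4, 21.7 and 21.7 CPM in control libraries and 9.78 to 13.6 CPM in same-seed libraries (log2 fold-change -0.90, SE 0.0855, adjusted p = 7.9e-07, edgeR). DTX3L had 16.1, 20.2 and 18.0 CPM in control libraries and 9.31 to 11.04 CPM in same-seed libraries (-0.83, SE 0.0805, adjusted p = 1.1e-06). Neither gene overlapped between the groups.
PARP12 and PARP14 are mono-ADP-ribosyltransferases. PARP12 went from 16.0 to 17.7 CPM in control cells to 7.95 to 11.6 CPM (-0.78, SE 0.102, adjusted p = 3.4e-05, edgeR). PARP14 went from 27.6 to 32.9 CPM to 10.3 to 19.7 CPM (-0.91, SE 0.122, adjusted p = 4.6e-05); its lowest value, 10.3, was in miR-372 replicate 2, 1 of the libraries that stood apart. PARP10, another mono-ADP-ribosyltransferase, was close to the threshold at -0.82 (adjusted p = 0.041), its same-seed and control libraries overlapped, and the call was lost in 6 of 12 fits that left out 1 library.

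None of the 5 ISG15-system members was called in either direction by edgeR. HERC5 and HERC6, 2 of the 5, had an unadjusted p below 0.05, as did 30% of all genes tested. ISG15, the ubiquitin-like modifier itself, had 13.8, 11.4 and 13.2 CPM in the control libraries and 7.78 to 17.3 CPM in the same-seed libraries, and the fold-change of -0.08 (SE 0.178) was well within that spread. The ligase HERC5 (0.18), the HECT protein HERC6 (-0.23) and the ISG15 protease USP18 (-0.11) did not pass. UBA7 passed the filter with few reads, and its estimate of 0.77 had an SE of 0.61.

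Effectors held the largest decrease and changes in both directions: 9 of 17 tested were lower and 2 higher. SP110, a nuclear body protein related to SP100 (chr2:231029902-231090444, minus strand, GRCh37), was the member with the smallest adjusted p. It had 7.73, 8.44 and 8.602 CPM in the control libraries, 0.912, 2.41 and 2.29 with miR-302a, 1.94, 2.19 and 2.39 with miR-372, and 2.62, 1.87 and 2.55 with miR-373. The log2 fold-change was -1.95 (SE 0.164; adjusted p = 1.8e-07, edgeR), and the ranges were far apart. CMPK2, a mitochondrial nucleotide kinase, rested on 12 to 13 reads in control libraries and 2 to 8 in same-seed libraries (log2 fold-change -1.82, SE 0.313, adjusted p = 0.00056). It passed the filter through the groups in which it was high, so a difference was part of its selection. The dynamin-like GTPase MX1 changed by -1.26 (SE 0.262, adjusted p = 0.0028, edgeR), from 28 to 37 reads in control libraries. With miR-133a, MX1 was not called, at 0.974, 0.803 and 1.56 CPM. Those libraries lay below the control libraries (2.03 to 2.44 CPM) and overlapped the same-seed libraries (0.470 to 1.30 CPM).
The membrane protein IFI6 (-0.76), the tetratricopeptide proteins IFIT1 (-0.83), IFIT3 (-0.93) and IFIT5 (-0.24), the capsid-binding TRIM5 (-0.35) and the Tudor protein TDRD7 (-0.26) were also lower. The groups overlapped for IFIT1, with 8.85, 6.00 and 7.97 CPM in control libraries and 6.48 CPM in miR-373 replicate 1. IFIT1 was not called with miR-373 alone. The call was lost in 8 of 12 fits without 1 library for IFIT5, in 6 of 12 for TDRD7, and in 3 of 12 each for IFIT3 and TRIM5. IFIT3 too passed the filter through groups in which it was high, with 14 to 17 reads in control libraries and 3 to 19 in same-seed libraries. IFIT paralogues resemble each other, and reads shared between them would not reach the mapping quality asked for. IFIT2 was not tested, with 7 to 12 reads in control libraries and 1 to 7 in same-seed libraries.
Of the IFITM genes, which encode proteins that restrict virus entry at membranes, 2 were higher. IFITM2 had 8.33, 8.83 and 8.32 CPM in control libraries and 10.8 to 14.8 CPM in same-seed libraries (0.59, SE 0.107, adjusted p = 0.00096, edgeR), with no overlap. IFITM3 was at 0.50 (SE 0.165, adjusted p = 0.047), its groups overlapped, and its call was lost in 7 of 12 fits without 1 library. The IFITM genes are near-identical neighbours, so how reads were divided among them is uncertain.

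Antigen presentation was divided as well, with 3 of 6 tested members lower and 1 higher. The class I heavy chain HLA-B had 97.7, 89.2 and 93.7 CPM in control libraries. It had 71.4, 59.0 and 72.5 CPM with miR-302a, 64.6, 61.6 and 61.9 with miR-372, and 78.1, 61.3 and 71.9 with miR-373, a log2 fold-change of -0.49 (SE 0.0747; adjusted p = 0.00019, edgeR). HLA-C (-0.31) and the peptide transporter subunit TAP1 (-0.35) were lower too, whereas B2M, the light chain, was at -0.22 with an adjusted p of 0.092. Class I genes share long stretches of sequence, and their separate values are uncertain for that reason. IFI30, a lysosomal thiol reductase that prepares antigens for class II display, was higher: 45.6, 46.1 and 46.8 CPM in control libraries and 49.5 to 68.0 CPM in same-seed libraries (0.38, SE 0.084, adjusted p = 0.0049).

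**Figure D4:**
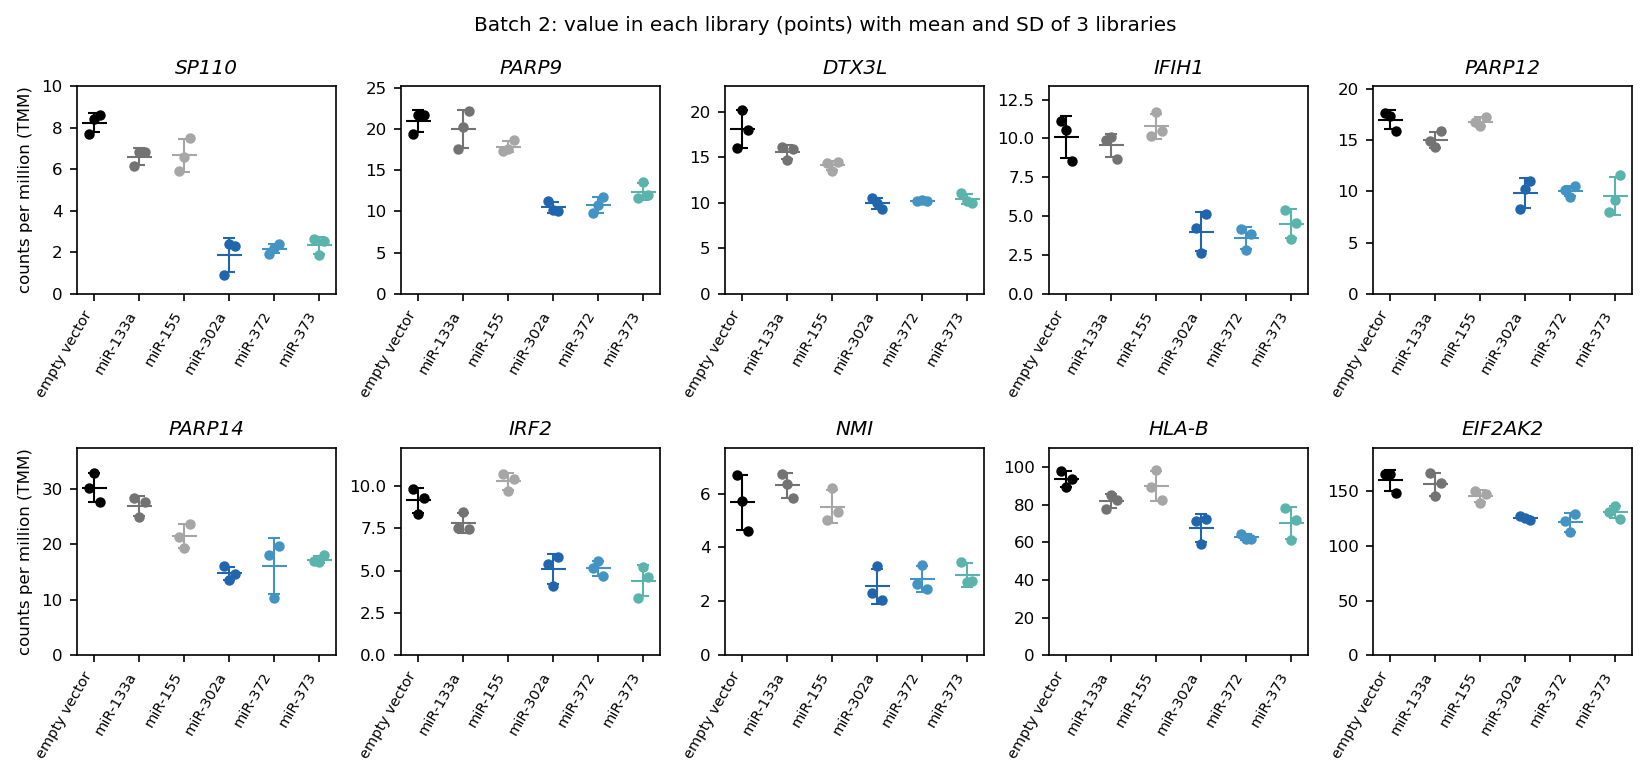
TMM-scaled CPM in each batch 2 library (points), with the mean and SD of 3 libraries, for the 10 members with the smallest adjusted p in the pooled same-seed contrast. The miR-133a and miR-155 libraries sit near the empty vector libraries for IFIH1 and NMI, but lie below all of them for SP110. The miR-155 libraries also lie below all control libraries for PARP9, DTX3L and PARP14, and the miR-133a libraries for HLA-B and PARP12. The 9 same-seed libraries lie below all control libraries in each panel. The panels were chosen by adjusted p in this contrast, so that separation adds no separate support.

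Whether these changes differed from those of other miRNAs in the batch was tested directly, with the pooled same-seed libraries (n = 9) against the pooled miR-133a and miR-155 libraries (n = 6). This contrast does not use the control libraries but shares the same-seed libraries with the one above. It called 32 of 50 members, 28 lower and 4 higher, where 27.8% of all genes were called, 13.5% lower and 14.3% higher. All 23 members lower against the empty vector were also lower here, as were 5 others: B2M, USP18, LGALS3BP, PLSCR1 and TRIM21. IFITM2, IFITM3 and IFI30 were higher again, with IFITM1 besides. The same-seed libraries lay below all miR-133a and miR-155 libraries for 15 of the lower members and overlapped them for 13. They also overlapped for all 4 higher members. The share of all genes without overlap is not given here. The difference was largest for SP110 (-1.63, SE 0.140, adjusted p = 6.6e-08, edgeR), IFIH1 (-1.34, SE 0.126, adjusted p = 2.2e-07) and IFI35 (-1.25, SE 0.138, adjusted p = 1.8e-06). It was smaller than against the empty vector for SP110, CMPK2 (-1.04), IRF2 (-0.88), PARP9 (-0.75), PARP12 (-0.68), MX1 (-0.63), PARP14 (-0.58) and DTX3L (-0.54). HLA-B (-0.36), EIF2AK2 (-0.26) and TAP1 (-0.18) also differed by less here, whereas IFI35, NMI (-1.09) and IFI6 (-1.19) differed by more.

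Between the same-seed miRNAs no member differed: each of the 3 pairwise contrasts called 0% of all genes and 0 members with edgeR. At an unadjusted p below 0.05 there were 2 members for miR-302a against miR-372, 1 for miR-302a against miR-373 and 0 for miR-372 against miR-373. Of all genes tested, 0.868%, 1.31% and 1.11% were below it in these contrasts. With DESeq2's size factors in the edgeR fit, with a filter on CPM and with a replicate block, 0 members were called as well. For SP110 the pairwise log2 differences were -0.22 (SE 0.25), -0.32 (SE 0.25) and -0.10 (SE 0.24) in that order, and for IRF2 they were -0.01, 0.18 and 0.19 (SE 0.16 each). The standard errors leave room for differences of this size, so the test does not show that the miRNAs act alike.

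Cells expressing miR-1, which were in the other batch and were not tested against the same-seed miRNAs, also had members mainly lower. Of 50 members 18 were called, 16 lower and 2 higher, and all genes were called at 24.5%, 13.7% lower and 10.8% higher. The DESeq2 Wald test called 7 members, and edgeR called 8 without miR-1 replicate 1 and 9 without replicate 2. ADAR, the enzyme that converts adenosine to inosine in double-stranded RNA, had 409 and 378 CPM in control cells and 250 and 269 CPM with miR-1, a log2 fold-change of -0.60 (SE 0.0465; adjusted p = 1.4e-08, edgeR). PARP12 had 20.4 and 20.5 CPM in control cells and 13.9 and 14.6 CPM with miR-1 (-0.52, SE 0.0883, adjusted p = 0.00024). NMI had 5.51 and 6.14 CPM in control cells and 3.13 and 3.33 CPM with miR-1 (-0.85, SE 0.159, adjusted p = 0.00066). For these genes both miR-1 libraries lay below both control libraries.
IFI30 had 37.3 and 42.9 CPM in control cells and 32.6 and 29.3 CPM with miR-1 (-0.37, SE 0.0725, adjusted p = 0.00094, edgeR). IFITM3 had 4.35 and 4.63 CPM in control cells and 2.85 and 2.32 CPM with miR-1 (-0.80, SE 0.173, adjusted p = 0.0023). MX1 had 2.47 and 2.08 CPM in control cells and 1.21 and 0.82 CPM with miR-1 (-1.15, SE 0.26, adjusted p = 0.0031); without miR-1 replicate 2 its adjusted p was 0.06. IFI30 and IFITM3 were therefore called lower with miR-1 and higher with the same-seed miRNAs, while 10 members were called lower in both. The share of all genes called lower in both was not computed.
The other members lower with miR-1 were IFIT2 (-1.57, 13 and 20 reads in control libraries and 6 and 5 with miR-1, a gene that passed the filter through groups where it was high), IFITM1 (-0.60), SP110 (-0.51), DDX60 (-0.50), IRF2 (-0.45), tetherin or BST2 (-0.41), IFIH1 (-0.32), PARP14 (-0.24), HLA-C (-0.17) and EIF2AK2 (-0.12). MAVS (0.21) and IRF3 (0.19) were higher. Of the 4 fits that left out 1 control or miR-1 library, 3 lost the call of IFIH1, EIF2AK2, IFITM1, BST2, IFIT2 and MAVS, and 2 lost that of SP110. Over all 10 alternative fits, the call held in 4 for IFIH1 and in 2 for EIF2AK2. ADAR, NMI, PARP12, IFI30 and IFITM3 kept theirs in all 10. By role, 4 of 8 sensors, 2 of 9 signalling members, 0 of 4 ISG15-system members, 2 of 5 of the PARP group, 6 of 18 effectors and 2 of 6 antigen presentation members were lower.

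Against miR-122, the other miRNA of its batch, miR-1 had 24 members called, 22 lower and 2 higher (all genes 31.2%, 16% lower and 15.2% higher), and 15 of the 16 members lower against the empty vector were lower here too. This contrast shares the miR-1 libraries with the one above. The difference was -0.55 for ADAR (SE 0.0466, adjusted p = 2.7e-08, edgeR) and -1.52 for MX1 (SE 0.246, adjusted p = 0.00011).

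With miR-122, 2 members were called, both higher and none lower by edgeR (1 by DESeq2, and 8 by edgeR without empty vector replicate 2), where 5.92% of all genes were called, 4.06% lower and 1.86% higher. LGALS3BP had 372.4 and 375.8 CPM in control cells, 427 and 428 with miR-122, and 356 and 357 with miR-1 (log2 fold-change for miR-122 0.19, SE 0.0373, adjusted p = 0.0025, edgeR). IRF3, the factor activated by the sensing adaptors, had 53.1 and 55.0 CPM in control cells and 62.5 and 60.3 with miR-122 (0.18, SE 0.0526, adjusted p = 0.044). The IRF3 call held in 4 of 10 alternative fits, its adjusted p reaching 0.33 without miR-122 replicate 1, and the LGALS3BP call held in all 10.

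**Figure D5:**
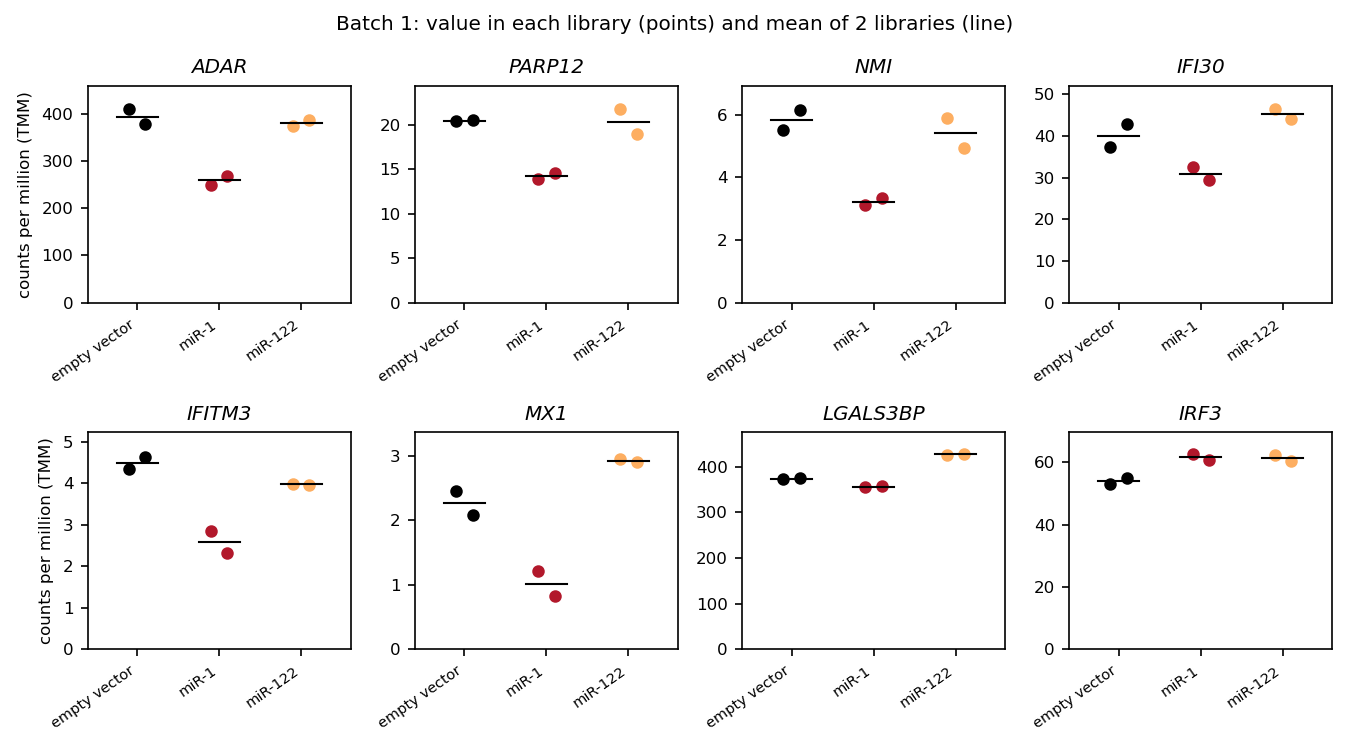
TMM-scaled CPM in each batch 1 library (points) and the mean of 2 libraries (line), for the members with the smallest adjusted p with miR-1 or miR-122. For ADAR, the miR-1 libraries are at 250 and 269 and the others at 373.2 to 409.

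With miR-133a, 1 member was lower and none higher (all genes 5.34%, 3.97% lower and 1.37% higher). The count was 4 with only the groups compared, 3 with a replicate block, 2 without a filter and 3 without the 2 libraries that stood apart, all lower. The member was HERC6, a HECT-domain relative of the ISG15 ligase HERC5, at 9.22, 9.27 and 8.95 CPM against 14.2, 14.4 and 17.6 CPM in control cells (-0.75, SE 0.116, adjusted p = 0.00038, edgeR). No other batch 2 library fell to that level, the next being 10.95 CPM with miR-302a. The call held in all 13 alternative fits.

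With miR-155, 3 members were lower and 1 higher (all genes 7.63%, 4.81% lower and 2.82% higher). IFI6, a small interferon-induced membrane protein, had 12.8, 11.5 and 11.5 CPM in control cells, 19.4, 20.5 and 18.3 with miR-155, and 5.53 to 9.15 CPM with the same-seed miRNAs. It was the higher member with miR-155 (0.70, SE 0.156, adjusted p = 0.0082, edgeR) and lower with the same-seed miRNAs, and the groups did not overlap in either case. CMPK2 was lower on 3, 3 and 6 reads against 12, 13 and 13 (-1.63, SE 0.412, adjusted p = 0.02, edgeR). It passed the filter through the empty vector and miR-133a groups, in which it was high, so a difference was part of its selection here too.
TAP1 had 33.3, 28.7 and 28.7 CPM against 35.9, 40.8 and 39.5 in control cells (-0.36, SE 0.0954, adjusted p = 0.026), and DTX3L had 14.4, 13.5 and 14.5 against 16.1, 20.2 and 18.0 (-0.36, SE 0.101, adjusted p = 0.035). The call held in all 13 alternative fits for IFI6, in 6 of 11 for CMPK2, in 7 of 13 for TAP1 and in 5 of 13 for DTX3L. Without empty vector replicate 2, the adjusted p was 0.059 for CMPK2, 0.12 for TAP1 and 0.21 for DTX3L. Without miR-155 replicate 2, a library that stood apart, it was 0.09, 0.11 and 0.14.

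Further genes of the pathway, from a list of ligands, receptors, kinases, adaptors, other factors, inhibitors and other antigen-processing genes, are set beside the members. Of the 41 present, 33 were tested, and with the pooled same-seed miRNAs 10 were lower and 1 higher, beside 9.11% and 6.28% of all genes. The receptor chains IFNAR1 (-0.40) and IFNLR1 (-0.35) and the kinases JAK1 (-0.34) and TYK2 (-0.29) were lower, as was NLRC5, an activator of class I genes (-0.71). TLR3, an endosomal sensor of double-stranded RNA, was among the 10 at -2.33, on 11 to 15 reads in control libraries and 2 to 4 in same-seed libraries; like CMPK2 it passed the filter through the groups in which it was high. In antigen processing TAPBP (tapasin, -1.14, SE 0.09), PSME1 (-0.48), ERAP1 (-0.36) and TAP2 (-0.34) were lower and PSMB10 was higher (0.62). None of the 5 inhibitors was called by edgeR, and 2 had an unadjusted p below 0.05 (SOCS1 and PTPN6), as did 30% of all genes tested. With miR-1, 5 of the 33 were lower, where 13.7% of all genes were: TLR3 (-0.95), IRF8 (-0.44), TICAM1 (-0.41), IL10RB (-0.26) and TAPBP (-0.16). With miR-155, 3 were lower and 1 higher (all genes 4.81% and 2.82%). With miR-133a 0 were lower and 2 higher (3.97% and 1.37%), and with miR-122 0 and 1 (4.06% and 1.86%). IRF8 had 7.12 to 8.10 CPM in batch 2 control cells, 3.20 to 3.68 with miR-155 and 10.6 to 12.1 with miR-133a. The genes left out of the list, OAS3 and SAMD9, were at -2.47 and -2.70 with the pooled same-seed miRNAs and at -1.32 and -0.48 with miR-1.

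Matches to the seeds were then looked up in the longest annotated 3′UTR of each gene (GENCODE on GRCh37), as an 8mer, a 7mer-m8 or a 7mer-A1. For the same-seed miRNAs, 10 of 50 tested members held a match, beside 30.1% of 13041 tested genes with an annotated 3′UTR. The members' 3′UTRs were shorter, with a median of 707 bases against 1540. Of the 23 members lower in the pooled contrast 7 held a match and 16 did not, and 3 members with matches, MAVS, IRF9 and IRF1, were not called. IRF2 was the member with an 8mer, whose 8 letters are AGCACTTA, and it held a 7mer-m8 as well. Of the 9 matches in these 7 members, 5 are shown 5′ to 3′ with the match in capitals and the gene's strand.
IRF2, chr4:185309484-185309491, minus strand: ccttatcttaaAGCACTTAcagataggcct
IRF2, chr4:185307768-185307774, minus strand: cttctggaaggAGCACTTtcgttgactgt
EIF2AK2, chr2:37326585-37326591, minus strand: cattcctacacAGCACTTttcttcattat
MX1, chr21:42840447-42840453, plus strand: tggcagcgttcAGCACTTctgaggtcttc
IFIT5, chr10:91178836-91178842, plus strand: ttgcaaaagacAGCACTTtttagttacag
IFIH1, NMI, IFI35, HLA-B and the 5 members of the PARP group held no match in the 3′UTR. In coding sequence SP110 held 2 matches to the seed, and NMI, DTX3L and DDX60 held 1 each. RIGI, TRIM21 and HERC6, which were not called, also held 1 each, and the share of all genes with a coding match was not computed. A match is a string of letters, and binding at it was not measured here.

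For miR-1, 10 of 50 members held a match (all genes 24.1%), and 4 of the 16 lower members did. They were ADAR and BST2, each with a 7mer-m8, and IRF2 and EIF2AK2, each with a 7mer-A1. The miR-155 match in CMPK2 was the single match among the 3 members lower with miR-155, and HERC6 held none for miR-133a in the 3′UTR and 4 in coding sequence. Members not called with miR-133a held coding matches for it too, among them STAT2 and HERC5 with 2 each.
ADAR with miR-1, chr1:154554573-154554579, minus strand: cttaacaatatACATTCCtcataaataaa
BST2 with miR-1, chr19:17514088-17514094, minus strand: ttttcgcttgaACATTCCcttgatctcat
CMPK2 with miR-155, chr2:6988600-6988606, minus strand: agctgataaatAGCATTAgggttctttgc

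The promoters of the members were also searched for the core of the interferon-stimulated response element, GAAANNGAAA or its reverse complement TTTCNNTTTC, overlapping matches included. The windows ran from 250 bases before to 50 after the RefSeq start (GRCh38.p14), and 47 of the 58 members had one. The letters were present in 27 of 47 members' promoters (57.4%), in 3.57% of all 35116 promoters and in 2.65% of those of genes tested in batch 2. In the pooled same-seed contrast they were present in 14 of 21 members that were lower (66.7%) and in 10 of 19 that were tested and not called (52.6%). Examples from members that were lower follow, as stretches of the promoter on the gene's strand with the core in capitals and its position.
IFIH1, chr2:162318696-162318705, minus strand: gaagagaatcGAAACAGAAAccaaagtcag
DTX3L, chr3:122564332-122564341, plus strand: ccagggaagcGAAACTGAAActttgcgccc
PARP14, chr3:122680810-122680819, plus strand: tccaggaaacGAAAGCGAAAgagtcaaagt
EIF2AK2, chr2:37156977-37156986, minus strand: agtccaagggGAAAACGAAActgagaacca
MX1, chr21:41420569-41420578, plus strand: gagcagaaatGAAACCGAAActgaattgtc
The core was also present at ISG15, whose level did not pass the test, and at IFITM3, which was higher. A match describes the letters only, and occupancy of these promoters was not tested.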

How the data were processed

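RNA-seq of polyA+ RNA was analysed from the counts deposited by the authors: raw exon read counts per gene, without normalization, for 29794 genes and 24 libraries. Per the study's methods and labels, reads were aligned to hg19 with TopHat 2.1.1 and counted by strand with featureCounts at a mapping quality of at least 50. The authors also deposited 14 tables of their own comparisons (fold changes and p-values), which were not used. Members and lists were chosen with earlier results of these data known.

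Per batch, genes were kept with filterByExpr (minimum count 10), scaled by TMM and fitted with edgeR 4.0.16 in R 4.3.3 (quasi-likelihood, all groups of the batch). The Benjamini-Hochberg adjustment covered all 14348 (batch 1) or 14054 (batch 2) genes, and calls were made below 0.05. The prior count for fold changes was 0.125. Code was tested on simulated data. Alternatives were DESeq2 1.42.0 (size factors, or the Wald test), other filters, only the groups compared, a replicate block and leaving out each library. Symbols came from a table that matched 28543 identifiers. Values are shown for members called against the empty vector: at most 6 with the smallest adjusted p for miR-1, miR-122, miR-133a and miR-155, and 10 for the pooled same-seed contrast. Other members are given by their fitted values. Those singled out by library (CMPK2, MX1, IFIT3 and TLR3 reads, MX1, IFIT1 and IRF8 levels in batch 2, ISG15, IFITM2, IFIT2, and IFI30 with the same-seed miRNAs) were chosen after their values were seen. Numbers in replicate names were not taken to pair miRNA with control samples. In batch 1 the deviations of 2 replicates mirror each other and give the same correlation, which cannot decide on pairing. With miR-373 and the empty vector, correlations of same-numbered deviations were 0.22, 0.148 and 0.029. No comparison with the empty vector had every such correlation above 0.1. Of the 10 pairs of miRNA groups in batch 2, 5 had (the closing section). Some matches are not reported here.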

Additional observations from a re-analysis of the deposited data

Results flagged for a closer look

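Of the members given by library under the rule for named genes, 13 of the 32 called in the same-seed direct contrast and 7 of the 24 called for miR-1 against miR-122 are listed here by their log2 differences with edgeR. IFI35, at -1.25 in the same-seed contrast, was outside that rule. Between the pooled same-seed miRNAs and pooled miR-133a and miR-155 the difference was -1.63 for SP110, -1.34 for IFIH1, -1.19 for IFI6, -1.09 for NMI, -1.04 for CMPK2 and -0.88 for IRF2. CMPK2 passed the filter through groups in which it was high, the miR-133a group among them. For the next genes the differences were smaller. The difference was -0.75 for PARP9, -0.68 for PARP12, -0.58 for PARP14 and -0.54 for DTX3L. It was -0.36 for HLA-B, -0.26 for EIF2AK2 and -0.18 for TAP1. Between miR-1 and miR-122 it was -1.52 for MX1, -0.75 for NMI, -0.62 for IFITM3 and -0.55 for ADAR. It was -0.55 for IFI30, -0.51 for PARP12 and -0.26 for LGALS3BP. IFI6 was the member called in opposite directions within batch 2, higher with miR-155 and lower with the same-seed miRNAs.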

How the results depend on the processing

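Of 139 counts of called members under alternative fits 118 stayed within 1.5 times the reported count, and of 1506 values of single called members 1298 kept their call, 208 lost it and 0 reversed. Leaving out each library in turn, the calls ranged from 8 to 19 with miR-1 (8 without miR-1 replicate 1, 9 without replicate 2), from 1 to 8 with miR-122 (8 without empty vector replicate 2), and from 1 to 4 with miR-155 (1 without empty vector replicate 2 or 3 or miR-155 replicate 2), while miR-133a kept 1. The range was 13 to 16 with miR-302a (13 without empty vector replicate 2), 16 to 20 with miR-372, 12 to 15 with miR-373, 20 to 27 in the pooled same-seed contrast, 26 to 33 in its direct contrast and 16 to 19 for miR-1 against miR-122. In batch 1 this leaves a group with 1 library, which is assumed to vary like the others. The DESeq2 Wald test called 7 members with miR-1 and 1 with miR-122. With only the groups compared, miR-122 had 1 call and miR-133a 4, and without a filter miR-133a had 2. Without miR-155 replicate 2 and miR-372 replicate 2, an alternative chosen after seeing the data, miR-133a had 3 calls, miR-155 had 2, each same-seed miRNA 22, the pooled contrast 30 and the direct contrast 32. With a replicate block, miR-122 had 1 call and miR-133a had 3. The block moved no other count by over 1.5 times. Correlations of same-numbered control and miRNA samples were -0.04 for miR-1 and 0.029 to 0.22 for miR-373, and pairing was not settled by them. Between miRNA groups every same-numbered pair was above 0.1 for miR-155 and miR-372 (0.273 to 0.614), miR-133a and miR-155 (0.183 to 0.345), miR-302a and miR-372 (0.161 to 0.336), miR-133a and miR-372 (0.137 to 0.3) and miR-155 and miR-302a (0.112 to 0.202), and with the block the direct contrast called 32 members, as without it. The cause of these changes was not tested. Genes with few reads, such as CMPK2 and UBA7, are limited by depth.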
